A study of Mus musculus with 2 samples.

Results

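Chromatin accessibility was examined at 9 genes of the Toll-like receptor pathway, out of 21911 protein-coding genes. They were the receptor genes Tlr1, Tlr2, Tlr3, Tlr4, Tlr5, Tlr6 and Tlr9, the adaptor gene Myd88 and the co-receptor gene Cd14. The list was chosen with earlier results of these data known. All 9 were found in the annotation and all 9 had enough fragments to be measured. The data were 2 single-cell ATAC-seq libraries of bone marrow hematopoietic stem cells (HSCs) of C57BL/6 mice, 1 from 10-week-old (young) and 1 from 20-month-old (aged) animals, female by the study's methods. The labels give no treatment and no altered allele for either group, the number of mice behind each library is not given in the sources used here, and HSCs of both were sorted by the same markers, as IL-7- Lin- Sca-1+ c-kit+ cells that were CD34-, CD150+, CD48- and Flt3-. With 1 library per age there was no replicate error and no test was possible. Intervals are exact 95% intervals that cover counting error only, and a difference between ages cannot be told apart from a difference between libraries.

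Toll-like receptors recognize conserved molecules of microbes. TLR2 pairs with TLR1 or TLR6 to bind bacterial lipoproteins, TLR4 binds lipopolysaccharide with the help of CD14 and MD-2, and TLR5 binds flagellin, all at the cell surface. TLR3 and TLR9 sit in endosomes, where they bind viral RNA and DNA rich in unmethylated CpG. All of these receptors except TLR3 pass their signal to the adaptor MyD88, which leads to activation of NF-kB. HSCs are known to express some of these receptors and to respond to their ligands.

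Barcodes called as cells with 3000 to 20000 in-peak fragments were kept, which gave 4887 young and 3405 aged cells with a median of 9890 and 11020 fragments. Accessibility is given in FPM, the fragments of a region per 1000000 fragments that the library had in the peaks called here over both libraries. The young library had 34672907 such fragments and the aged library 26165429. Log2 ratios are aged over young, with 1 fragment added to each count. The aged library had the smaller share of short fragments, under the length of nucleosomal DNA (55.0% against 59.8%), and the lower median TSS enrichment (4.92 against 5.32), and 7.31% of its cells against 4.17% were marked as doublets. The cells of the 2 libraries shared 26 barcodes. Of 9 HSC marker genes, 8 had 100 or more promoter fragments over both libraries, and the summed promoter level of all 9 was 172 FPM in young and 183 FPM in aged HSCs. Of the 8, 2 (Slamf1 and Tek, each 0.44) were higher in aged HSCs by a log2 ratio of at least 0.32 and 0 were lower. Of all protein-coding promoters with as many fragments, 8.36% were higher and 2.59% lower by that much. The silent background was read from 1134 olfactory receptor promoters, whose median was 0.115 FPM in both libraries and whose 95th percentile was 0.519 FPM in young and 0.548 FPM in aged HSCs.

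Every member lay well above that background at its promoter, the window of 1 kb on either side of the gene start. In young HSCs, Myd88 had the highest promoter level at 53.1 FPM (50.7 to 55.5), followed by Tlr4 at 30.7 FPM (28.9 to 32.6) and Tlr2 at 27.6 FPM (25.9 to 29.4), whose intervals overlapped. Tlr6 had 16.4 FPM (15.1 to 17.8). Tlr3 with 13.7, Cd14 with 12.4 and Tlr5 with 12.1 FPM formed a group with overlapping intervals, near the median of 14.2 FPM of all protein-coding promoters. Tlr9 with 6.58 FPM (5.75 to 7.49) and Tlr1 with 6.55 FPM (5.72 to 7.46) were the lowest and did not differ beyond their intervals. In aged HSCs the order was the same but for the last pair, Tlr1 at 6.96 FPM (5.98 to 8.04) and Tlr9 at 3.02 FPM (2.39 to 3.76), whose intervals no longer overlapped. The genes nearest to Myd88 in promoter level over the 2 libraries, outside every list used here, were Myl4, Kif20a and Brd8, at distances of 0.0056, 0.0066 and 0.0073 on the log2 scale.

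**Figure D1:**
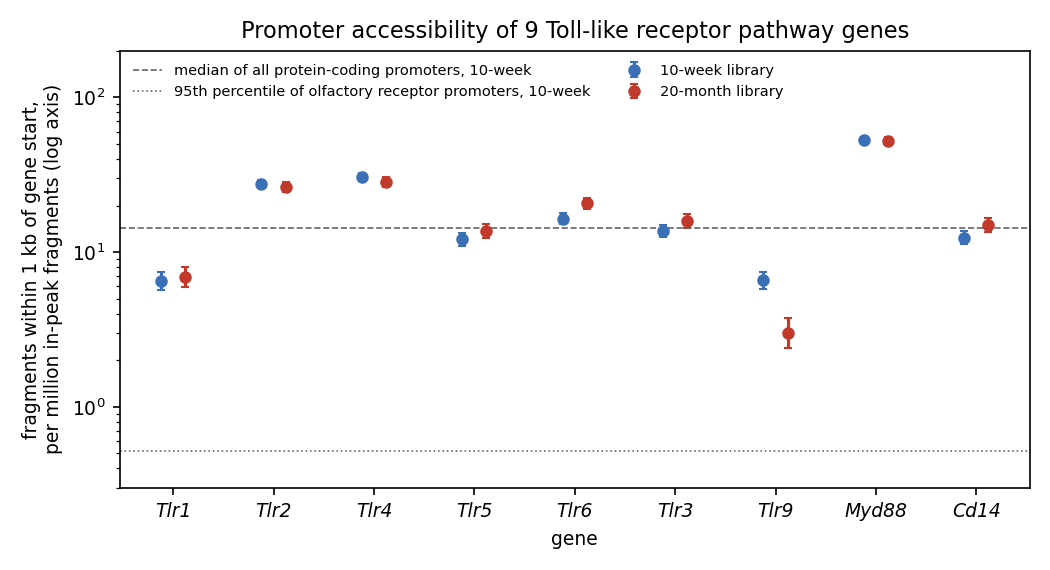
Promoter accessibility of the 9 genes in FPM (log axis) in the 10-week and 20-month libraries, with exact 95% Poisson intervals. Tlr9 is the gene whose levels stand furthest apart, at 6.58 FPM in young and 3.02 FPM in aged HSCs, and every member lies above the 95th percentile of olfactory receptor promoters.

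Between the ages, 1 of the 9 promoters was higher in aged HSCs by a log2 ratio of at least 0.32, the limit set for promoters and gene bodies, and 1 was lower by at least as much, against 8.36% and 2.59% of the 15003 protein-coding promoters with 100 or more fragments. The higher promoter was that of Tlr6, at 1.26-fold and thus just past that limit, and the lower was that of Tlr9, at 2.16-fold. The median log2 ratio of the 9 promoters was 0.089, beside a median of -0.054 over all promoters tested. The split of 1 higher and 1 lower became 0 higher and 1 lower when libraries were scaled to all unique fragments or by the trimmed mean of M values, and 2 higher (Tlr6 and Cd14) and 1 lower when they were scaled to promoter fragments. Over gene bodies, counted from the gene's start to its end, 1 member (Tlr6) was again higher and 1 (Tlr9) lower past the same limit, against 8.32% and 2.58% of 17668 genes. Without the promoter window neither body was past the limit, with log2 ratios of 0.29 for Tlr6 and -0.29 for Tlr9, and the 1 lower body was that of Tlr1 at -0.48 (-1.01 to 0.014).

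**Figure D2:**
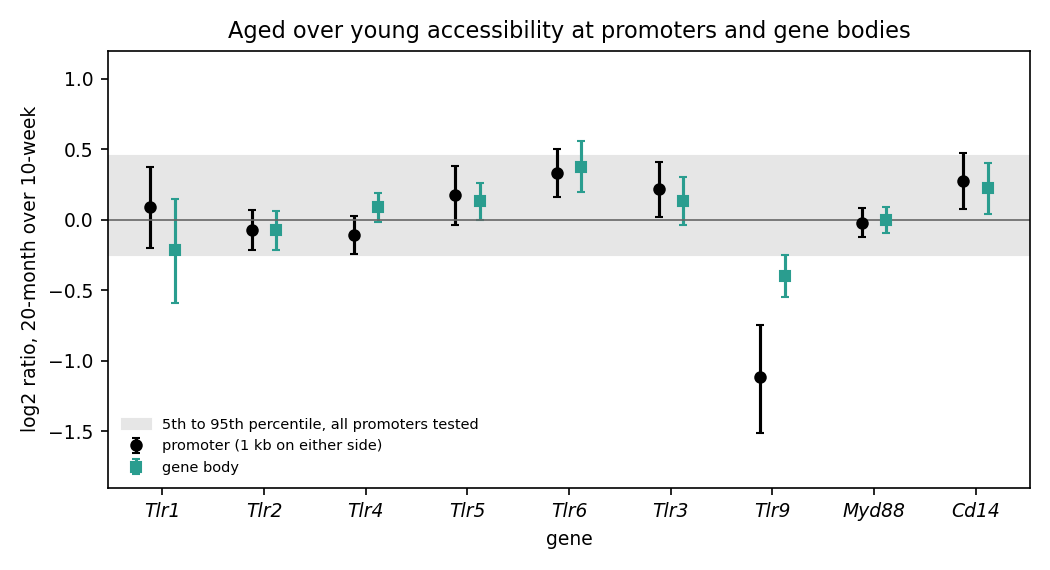
Log2 ratio of the 20-month over the 10-week library at the promoter (circles) and over the gene body (squares) of each gene, with exact binomial 95% intervals and, in gray, the 5th to 95th percentile of all promoters tested (-0.25 to 0.45). The Tlr9 promoter, at -1.11, is the only member promoter outside the gray band.

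The sequences around the gene starts are shown because the members differed in base composition there and in the motifs they held. Each stretch runs from 200 bases before to 30 bases after the gene start, on the strand of the gene, in GRCm38 (mm10), and was read for the members that had a peak at that place, Cd14 left out. Tlr3 had no peak there. Capitals mark matches on either strand to the motifs of PU.1 (GAGGAAGT), CEBP (TTGCNNAA), IRF (GAAANNGAA) and STAT (TTCNNNGAA). The motifs AGATAA of GATA factors and TGANTCA of AP-1 were searched as well, and so were TGTGGTT, the motif of RUNX factors, and the NF-kB motif of 10 bases. Tlr9, whose promoter was lower in the aged library, and Tlr6, whose promoter was higher, stand first (chr9:106222398-106222627, plus strand, and chr5:64960068-64960297, minus strand), then Tlr1, Tlr2 and Myd88 (chr5:64933534-64933763, chr3:83841738-83841967 and chr9:119341382-119341611, all minus strand).
Tlr9 start: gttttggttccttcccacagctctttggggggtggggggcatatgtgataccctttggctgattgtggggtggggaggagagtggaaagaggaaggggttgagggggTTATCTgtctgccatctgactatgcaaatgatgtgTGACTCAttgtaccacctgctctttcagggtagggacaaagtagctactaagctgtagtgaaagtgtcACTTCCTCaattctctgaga
Tlr6 start: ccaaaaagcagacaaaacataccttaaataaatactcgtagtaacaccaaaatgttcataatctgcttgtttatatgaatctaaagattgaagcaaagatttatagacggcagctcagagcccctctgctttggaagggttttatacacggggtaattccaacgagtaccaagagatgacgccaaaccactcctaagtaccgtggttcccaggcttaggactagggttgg
Tlr1 start: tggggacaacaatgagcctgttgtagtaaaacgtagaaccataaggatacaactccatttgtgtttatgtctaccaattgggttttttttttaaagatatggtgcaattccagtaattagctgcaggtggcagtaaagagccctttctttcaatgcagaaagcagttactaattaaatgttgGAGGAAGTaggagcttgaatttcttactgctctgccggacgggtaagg
Tlr2 start: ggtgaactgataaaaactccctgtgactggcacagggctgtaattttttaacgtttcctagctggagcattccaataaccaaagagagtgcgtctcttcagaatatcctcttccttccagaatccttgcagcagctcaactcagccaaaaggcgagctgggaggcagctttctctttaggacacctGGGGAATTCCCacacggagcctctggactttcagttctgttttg
Myd88 start: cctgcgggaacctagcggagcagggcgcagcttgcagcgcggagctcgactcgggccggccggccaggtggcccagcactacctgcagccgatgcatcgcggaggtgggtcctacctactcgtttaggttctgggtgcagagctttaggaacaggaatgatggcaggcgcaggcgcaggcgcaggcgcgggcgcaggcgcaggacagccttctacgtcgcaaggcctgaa

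The Tlr9 stretch held a GATA, an AP-1 and a PU.1 match and no CpG dinucleotide. The Tlr1 stretch held a PU.1 match 18 bases before the start. The Tlr2 stretch held overlapping NF-kB matches, which begin 14 and 13 bases before the start. No match was found in the stretches of Tlr6, Myd88, Tlr4 and Tlr5, and that of Myd88 was CpG-rich, with 22 CpG and 67.4% GC. Of the stretches of the same length at all 21911 protein-coding gene starts, 2.46% held PU.1, 5.38% AP-1, 7.5% GATA and 2.08% NF-kB. The shares for the motifs not found at any of these starts were 8.10% for CEBP, 6.25% for IRF, 6.53% for STAT and 3.95% for RUNX. A match is only a run of letters and does not show that a factor was bound.

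Among the endosomal receptors, Tlr9 (chr9:106222598-106226883, plus strand) had the largest promoter difference of the 9 members. Its promoter held 228 fragments in young and 79 in aged HSCs, a log2 ratio of -1.11 (-1.51 to -0.75), which lay at percentile 0.0667 of all promoters tested. Over 13 alternatives it ranged from -1.30 to -0.38, and the value nearest to 0 came with a window of 5 kb on either side, which takes in the end of the gene, with 1167 and 677 fragments (-0.52 to -0.24). The peak over the gene start, chr9:106222476-106222695, was called in the young library only and went from 105 to 33 fragments, with a log2 ratio of -1.23 (-1.87 to -0.69). A small peak in the intron, 613 bp inside the gene, went from 72 to 25 fragments with a ratio of -1.08 (-1.84 to -0.45). Both peaks of the promoter window were thus at least 1.5-fold lower. The strongest peak of the gene itself lay over an exon near its end, 3765 bp from the start, and was less different, with 22.7 FPM in young and 18.5 FPM in aged HSCs, and its log2 ratio was -0.29 (-0.46 to -0.13). Over the whole gene body there were 1019 young and 583 aged fragments, a ratio of -0.40 (-0.55 to -0.25) at percentile 1.55 of all genes tested.

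Beyond the gene, an element 7710 bp downstream of the Tlr9 start and between genes was also lower in aged HSCs. It lay at chr9:106230001-106230615, was called in both libraries, and went from 592 fragments (17.1 FPM, 15.7 to 18.5) to 253 fragments (9.67 FPM, 8.51 to 10.9). Its log2 ratio was -0.82 (-1.04 to -0.61), and from -0.85 to -0.69 over 4 alternatives. Both the element and these alternatives were chosen after the data were seen. Of the 18 peaks with 40 or more fragments in Tlr9 and its 50-kb flanks, 15 were lower in aged HSCs, while 48.3% of all such peaks were. Those at the gene start, 613 bp inside the gene, 22547 and 6692 bp upstream and 38683 bp downstream were called in the young library only. They were thus counted through the library where they were higher. The median log2 ratio of the Tlr9 peaks was -0.24, beside 0.015 for all peaks. The promoters of the neighbors Ppm1m, Alas1 and Twf2 had log2 ratios of -0.43 (-0.61 to -0.25), -0.25 (-0.46 to -0.035) and -0.15 (-0.27 to -0.043), and the flanks in sum -0.17 (-0.22 to -0.12). A peak 22547 bp upstream, near the Ppm1m start, went from 119 to 42 fragments (-1.07, -1.64 to -0.58). The Tlr9 start and the downstream element were singled out for their low ratios, and the element lies within the flanks. Whether they differed from the flanks in sum was therefore not tested. In the same flanks, a weak peak 45607 bp upstream, called in the aged library only, was higher, with 23 and 35 fragments (0.99, 0.21 to 1.84).

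**Figure D3:**
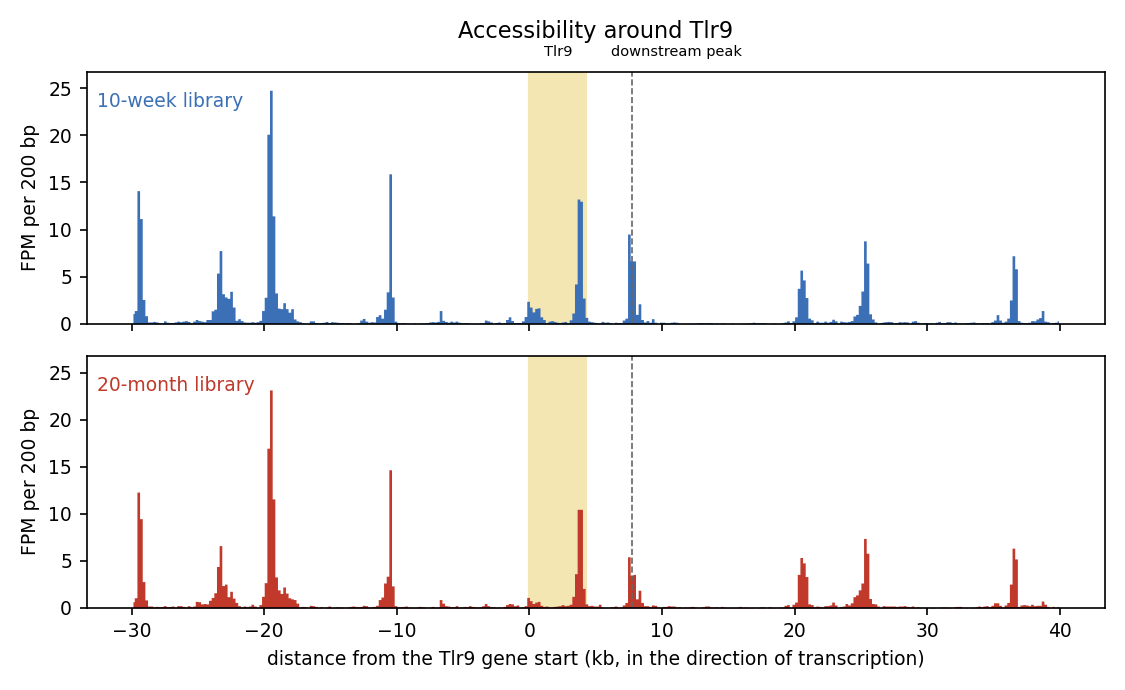
Accessibility around Tlr9 in FPM per 200 bp against the distance from the gene start in kb, in the 10-week library (top) and the 20-month library (bottom), on the same axis. The gene is shaded and the broken line marks the downstream peak, which has 17.1 FPM in young and 9.67 FPM in aged HSCs, while the tallest peak, at the Twf2 start, has 42.1 and 38.0 FPM.

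Tlr9 is known for its expression in B cells and plasmacytoid dendritic cells, so the markers of those cells are given beside it. Of 7 B cell markers, 6 had 100 or more promoter fragments and 0 were higher past the promoter limit, with a summed promoter level of 64.9 FPM in young and 63.0 FPM in aged HSCs. The single genes ranged from 0.346 to 31.8 FPM in young and from 0.229 to 29.4 FPM in aged HSCs. Of 7 dendritic cell markers, 4 had 100 or more fragments, and of these 1 was higher and 1 lower. They were Clec9a (0.43, -0.13 to 0.99) and Itgax (-0.34, -0.91 to 0.19), and both intervals included 0. Over all promoters tested, 8.36% were higher and 2.59% lower. The sum over the 7 was 46.0 and 47.5 FPM, with single genes from 0.144 to 32.8 and from 0.153 to 33.3 FPM. Siglech, a marker of plasmacytoid dendritic cells, had 18 and 4 promoter fragments, or 0.519 and 0.153 FPM, no higher than the 95th percentile of the silent background. Others of the same list lay above it and were not lower in aged HSCs. Bst2, the highest of the list, had 32.8 and 33.3 FPM, and Ccr9 had 8.48 and 9.67 FPM. No B cell or dendritic cell marker was without promoter fragments. The part of such cells in the Tlr9 difference was not tested. Without the cells marked as doublets, the promoter ratio of Tlr9 was -1.23 and that of its downstream element was -0.78.

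The share of cells recounts the same Tlr9 fragments and is not a second observation. After each cell was thinned to 3000 in-peak fragments, and the 100 young and 133 aged cells that were too shallow were left out, 2.13% of young cells (1.74 to 2.58) and 0.947% of aged cells (0.645 to 1.34) had a fragment at the Tlr9 promoter. Without thinning the shares were 4.52% and 2.26%. The same thinned shares over olfactory receptor promoters had medians of 0.0209% and 0.0306%. The number of cells of either library with 3 or more fragments there was 0.

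Tlr3 (chr8:45395665-45411080, minus strand) had 474 young and 416 aged promoter fragments, with 13.7 and 15.9 FPM and a log2 ratio of 0.22 (0.024 to 0.41). Its accessible region did not lie at the outermost annotated start but in a peak 792 bp inside it. That region covered the starts of most other Tlr3 transcripts and of the noncoding gene Gm45542, and fragments of the 2 genes cannot be told apart there. That peak had 543 and 433 fragments, with a ratio of 0.080 (-0.11 to 0.26). The outermost start itself, with 250 bp on either side, had few fragments, 37 and 65, and a ratio of 1.203 (0.62 to 1.84). The ratio of Tlr3 therefore moved with the window, to 0.45 for 500 bp and 0.023 for 5 kb on either side, and with short fragments alone it was 0.35 (0.084 to 0.62), past the limit. A peak 4208 bp upstream was lower, at 5.36 FPM in young and 3.55 FPM in aged HSCs (-0.59, -0.97 to -0.23), and so was one 43792 bp downstream in an intron of Fam149a, at 3.95 and 1.83 FPM (-1.09, -1.61 to -0.62).

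Among the surface receptors, Tlr6 (chr5:64952031-64960097, minus strand) was the one with a promoter past the limit, higher in aged HSCs. It had 570 young and 542 aged fragments, with 16.4 FPM (15.1 to 17.8) in young and 20.7 FPM (19.01 to 22.5) in aged HSCs, a log2 ratio of 0.33 (0.16 to 0.51) at percentile 92.0 of all promoters tested. The intervals of the 2 levels did not overlap. The gene body, which shares most of these fragments, had a ratio of 0.38 (0.20 to 0.56), and the peak over the start, 1240 bp wide, one of 0.41 (0.23 to 0.59). Within 500 bp of the start the ratio was 0.51 (0.28 to 0.75), and with short fragments alone the promoter ratio was 0.2997 (0.074 to 0.52), short of the limit. In the thinned cells 4.62% of young (4.04 to 5.25) and 5.72% of aged cells (4.94 to 6.57) had a promoter fragment, so these intervals overlapped. In the upstream flank, the peaks 30076 and 34359 bp from the start, both in introns of Fam114a1, had ratios of -1.53 (41 and 10 fragments) and 0.22 (464 and 409 fragments). The former was called in the young library only.

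Tlr1 (chr5:64924679-64933563, minus strand) starts 26534 bp from Tlr6 and shares its flank with it. Its promoter had 227 young and 182 aged fragments and a log2 ratio of 0.089 (-0.20 to 0.38), and its body one of -0.21 (-0.59 to 0.15), and both intervals included 0. The strongest peak of the region, at the Fam114a1 start on the other side of Tlr6, had 932 and 699 fragments and a ratio of -0.0084 (-0.15 to 0.13). Farther out, a peak 46290 bp downstream of the Tlr1 start was lower, at 6.75 FPM in young and 4.13 FPM in aged HSCs (-0.70, -1.05 to -0.37). A weak one at 32770 bp was higher, with 17 and 31 fragments (1.24, 0.37 to 2.22).

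Tlr2 (chr3:83836272-83841767, minus strand) had 956 young and 687 aged promoter fragments, with 27.6 and 26.3 FPM and a log2 ratio of -0.070 (-0.21 to 0.072). Its body had a ratio of -0.071 (-0.21 to 0.066), and 7.92% and 7.95% of thinned cells had a promoter fragment. Around this gene, however, lay the peak with the largest ratio of all members. It was found 13474 bp downstream of the start, in an intron of Gm7115 (chr3:83828151-83828435), was called in the aged library only, and went from 7 fragments (0.202 FPM, 0.0812 to 0.416) to 40 fragments (1.53 FPM, 1.09 to 2.08), a log2 ratio of 2.76 (1.75 to 4.32). In both libraries it remained a weak element, and it rests on few fragments. Bins of 500 bp at 2984 and 3484 bp upstream of the Tlr2 start were higher as well, from 21 to 42 and from 33 to 52 fragments. A peak 35839 bp downstream was higher too, with 73 and 95 fragments (0.78, 0.33 to 1.247). A peak 7789 bp upstream was lower, with 49 and 19 fragments (-0.92, -1.81 to -0.17), so the elements of the locus differed in direction.

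Tlr4 (chr4:66827584-66930284, plus strand), a long gene of 102701 bp, had 1065 young and 747 aged promoter fragments, with 30.7 and 28.5 FPM and a log2 ratio of -0.10 (-0.24 to 0.031). Within 250 bp of the start the fragments went from 826 to 536, with a ratio of -0.22 (-0.38 to -0.059). The rest of the gene body, without the promoter window, had 882 and 790 fragments and a ratio of the other sign, 0.25 (0.11 to 0.39). With short fragments alone the ratio of the whole body was -0.033 (-0.17 to 0.11), beside 0.089 with all fragments. Intronic peaks at 61949, 94757 and 96337 bp from the start were higher, with 18 and 26 (0.91, 0.014 to 1.89), 33 and 52 (1.05, 0.41 to 1.74) and 81 and 109 fragments (0.83, 0.41 to 1.27). Another, at 100197 bp, was lower, with 190 and 82 fragments (-0.80, -1.198 to -0.43), so neighboring elements of the gene differed in direction. The flanks of Tlr4 held only 5 bins of 500 bp with 40 or more fragments, and 0 of them passed 1.5-fold in either direction.

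Tlr5 (chr1:182954788-182976044, plus strand) had 419 young and 357 aged promoter fragments, with 12.1 and 13.6 FPM and a log2 ratio of 0.18 (-0.033 to 0.38). Its promoter window held peaks of unlike direction. The peak over the start went from 86 to 99 fragments (0.61, 0.18 to 1.04) and one 328 bp inside the gene from 109 to 112 (0.44, 0.052 to 0.84), while one 870 bp upstream went from 203 to 125 (-0.29, -0.63 to 0.035). With 500 bp on either side, which leaves that upstream peak out, the ratio was 0.57 (0.29 to 0.86). An element 31785 bp upstream (chr1:182922756-182923250), between genes, was lower, with 128 fragments in young (3.69 FPM, 3.08 to 4.39) and 34 fragments in aged HSCs (1.30 FPM, 0.8999 to 1.82), a ratio of -1.48 (-2.10 to -0.95). The strongest peak of the flanks, 26330 bp upstream, had a ratio of -0.12 (-0.27 to 0.034). An intronic peak 7163 bp from the start, called in the young library only, had 77 and 36 fragments (-0.67, -1.30 to -0.10).

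The adaptor gene Myd88 (chr9:119335934-119341411, minus strand) was the most accessible member and the one whose ratio had the narrowest interval. It had 1840 young and 1370 aged promoter fragments, with 53.1 and 52.4 FPM and a log2 ratio of -0.019 (-0.12 to 0.082). Its level stood at percentile 90 of all promoters in young and 91.5 in aged HSCs. The body gave 0.00082 (-0.092 to 0.093) and, per kb of gene, the highest level of the members, 11.7 FPM in both libraries. Of thinned cells, 15.02% and 14.8% had a promoter fragment. The gene start of Acaa1a lies 1735 bp away, inside Myd88, and Slc22a14 overlaps it, so fragments of the body cannot be assigned to 1 of these genes. The strongest peak of its flanks, at the Oxsr1 start, had a ratio of -0.18 (-0.27 to -0.091). A bin 17660 bp downstream of the Myd88 start was the 1 higher bin of its flanks, with 34 and 44 fragments.

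The co-receptor gene Cd14, on chromosome 18, had 430 young and 393 aged promoter fragments, with 12.4 FPM (11.3 to 13.6) and 15.02 FPM (13.6 to 16.6) and a log2 ratio of 0.28 (0.075 to 0.48), short of the limit of 0.32. This short gene of 1732 bp was largely covered by 1 peak, with 532 and 469 fragments and a ratio of 0.22 (0.042 to 0.41), and its body level per kb, 8.93 and 10.4 FPM, was second only to that of Myd88 in both libraries. The peak with the most fragments in its flanks, at the Ik and Ndufa2 starts, had a ratio of -0.19 (-0.30 to -0.078). A peak 48135 bp downstream, called in the young library only, was lower, with 72 and 35 fragments (-0.61, -1.26 to -0.033). Bins 20047 bp downstream (13 and 28 fragments) and 13953 bp upstream (17 and 26 fragments) were higher.

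Monocytes and macrophages use Cd14 and most of these receptors. Of 10 markers of those cells, 6 had 100 or more promoter fragments. Of these, 0 were higher and 2 (Fcgr1 and Ms4a6c) lower past the promoter limit, against 8.36% and 2.59% of all promoters tested. The summed level of all 10 was 53.4 FPM in young and 43.6 FPM in aged HSCs. Most of that fall lay in Fcgr1, from 19.2 to 13.2 FPM, and Ms4a6c, from 8.39 to 5.62 FPM. The single markers ranged from 0.433 to 19.2 FPM in young and from 0.382 to 13.2 FPM in aged HSCs. Ccr2 was lowest in young HSCs. Csf1r had 0.808 FPM in young and 0.994 FPM in aged HSCs, above the 95th percentile of the silent background in both. Fcgr1 was highest, and Lyz2 had 9.11 and 10.2 FPM. No marker of the list was without promoter fragments. The marker lists of neutrophils, T and NK cells, erythroid cells and megakaryocytes had summed promoter levels of 17.6, 17.3, 91.4 and 113 FPM in young and 16.7, 14.5, 83.7 and 101 FPM in aged HSCs. The part of such cells in the values of the members was not tested.

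The distal elements that differed most are shown with the base sequence of the 300 bases around their centers, on the plus strand of GRCm38, with the same motifs in capitals. They are the 3 peaks with the largest ratio in either direction more than 1 kb from a gene start, at chr3:83828143-83828442, chr5:64990023-64990322 and chr1:182922853-182923152, and the Tlr9 downstream element, at chr9:106230158-106230457, which was added after its values were seen. The Tlr6 upstream peak, 30076 bp before the Tlr6 start in an intron of Fam114a1, went from 41 to 10 fragments (-1.53, -2.79 to -0.61). It was called in the young library only and was thus counted through the library where it was higher.
Tlr2 downstream peak: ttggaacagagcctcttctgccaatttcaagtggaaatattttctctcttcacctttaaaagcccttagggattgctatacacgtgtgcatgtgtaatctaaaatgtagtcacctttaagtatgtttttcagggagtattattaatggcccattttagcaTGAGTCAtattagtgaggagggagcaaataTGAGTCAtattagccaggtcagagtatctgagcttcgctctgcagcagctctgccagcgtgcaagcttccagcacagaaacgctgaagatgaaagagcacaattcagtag
Tlr6 upstream peak: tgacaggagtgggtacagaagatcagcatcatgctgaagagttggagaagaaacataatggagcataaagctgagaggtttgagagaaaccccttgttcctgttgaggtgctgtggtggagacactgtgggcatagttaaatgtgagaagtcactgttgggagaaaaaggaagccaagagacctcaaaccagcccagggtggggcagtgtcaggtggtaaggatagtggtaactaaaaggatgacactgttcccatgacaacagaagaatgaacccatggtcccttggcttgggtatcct
Tlr5 upstream peak: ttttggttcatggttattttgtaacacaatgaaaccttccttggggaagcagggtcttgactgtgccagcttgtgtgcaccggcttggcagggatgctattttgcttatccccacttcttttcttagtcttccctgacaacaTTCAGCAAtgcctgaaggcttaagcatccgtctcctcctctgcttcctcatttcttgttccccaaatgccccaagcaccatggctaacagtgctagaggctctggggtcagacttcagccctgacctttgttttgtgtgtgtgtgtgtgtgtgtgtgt
Tlr9 downstream peak: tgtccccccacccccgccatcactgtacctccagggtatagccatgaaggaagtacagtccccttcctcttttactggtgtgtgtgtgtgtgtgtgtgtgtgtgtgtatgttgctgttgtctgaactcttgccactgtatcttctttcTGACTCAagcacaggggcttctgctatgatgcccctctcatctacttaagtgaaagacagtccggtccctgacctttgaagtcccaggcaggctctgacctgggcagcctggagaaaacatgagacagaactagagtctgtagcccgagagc

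The Tlr2 downstream peak, which was higher in aged HSCs, held 2 AP-1 matches. The Tlr9 downstream peak, which was lower, held 1 AP-1 match, and the Tlr5 upstream peak, also lower, held 1 CEBP match. The Tlr6 upstream peak held none of the motifs. Among 141928 distal peaks read the same way, 13.2% held AP-1, 12.9% CEBP, 8.51% PU.1, 12.8% IRF, 9.58% STAT, 15% GATA, 12.9% RUNX and 2.29% NF-kB.

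Across the gene bodies and 50-kb flanks of all members, 99 of 112 peaks had 40 or more fragments. Of these, 8 were at least 1.5-fold higher and 17 at least 1.5-fold lower in aged HSCs, against 14.2% and 7.41% of all 138494 such peaks. Of the 17, 6 lay at Tlr9. Among those 6, only the downstream element was called in both libraries, and the others were called in the young library only. So were the lower peaks 2129 bp inside Tlr2, 7163 bp inside Tlr5, 30076 bp upstream of Tlr6 and 48135 bp downstream of Cd14. Of the higher peaks, the Tlr2 downstream peak and the one 45607 bp upstream of Tlr9 were called in the aged library only. All of these were thus counted through the library where they were higher. In 500-bp bins of the flanks, 218 of 1656 had 40 or more fragments, and 14 (6.42%) were higher and 20 (9.17%) lower past 1.5-fold, against 14.6% and 6.01% of 353957 bins of the genome. Tlr2 had the most higher bins, 5 of 26, and Tlr9 the most lower bins, 6 of 46. The flanks of Cd14 had 3 higher and 3 lower of 33 bins, those of Myd88 1 and 2 of 25, and those of Tlr5 0 and 3 of 20.

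**Figure D4:**
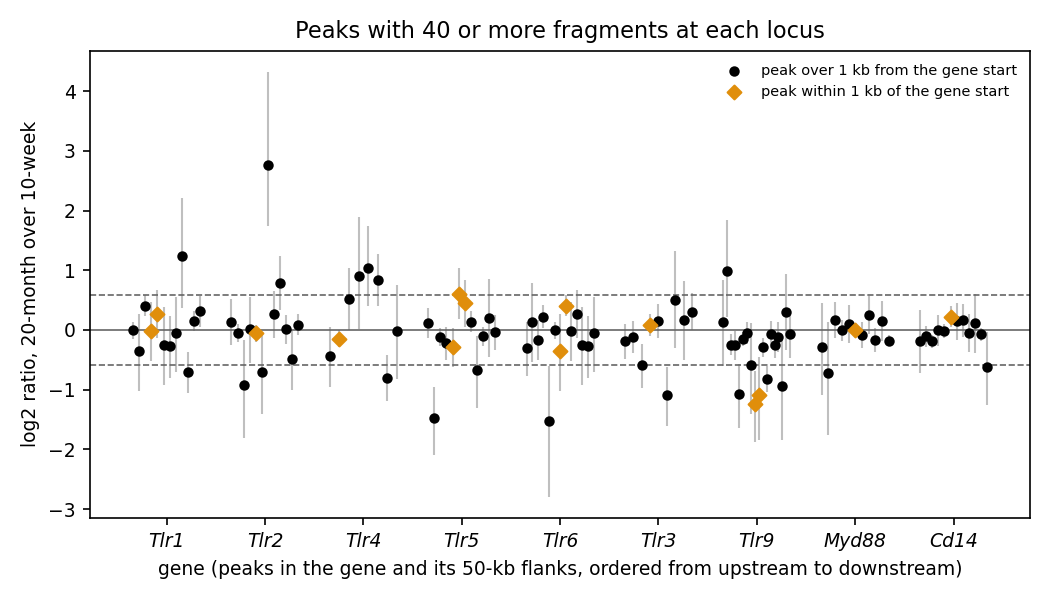
Log2 ratio of the 20-month over the 10-week library for each peak with 40 or more fragments in each gene and its 50-kb flanks, ordered from upstream to downstream, with exact binomial 95% intervals as gray lines and broken lines at 1.5-fold. Peaks shared by Tlr1 and Tlr6 are drawn at both genes. The Tlr2 downstream peak stands highest at 2.76, and 15 of the 18 Tlr9 peaks lie below 0. Peaks called in only 1 library are included.

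The other genes of the pathway were read in 5 lists of 48 genes, of which 40 had 100 or more promoter fragments. Of these 40, 1 promoter was higher and 1 lower past the promoter limit, against 8.36% and 2.59% of all promoters tested. The median log2 ratio was -0.048, beside the median of -0.054 over all promoters. The 15 adaptors and kinases were all measured, and 0 were higher and 0 lower. The genes with the largest ratios among them were Traf3 with -0.21 (-0.35 to -0.068), a ubiquitin ligase of the interferon branch, and Map3k7 with -0.17 (-0.28 to -0.058), the kinase TAK1. Among 8 inhibitors, 7 were measured, and Tnip1, which encodes a partner of the NF-kB inhibitor A20, was the 1 lower promoter, with 753 and 447 fragments and a ratio of -0.34 (-0.52 to -0.18). Sigirr, a receptor that dampens the signal, had 0.12 (-0.099 to 0.34).

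Of 7 accessory and trafficking genes, 5 were measured, with 0 past the limit. Unc93b1, the chaperone that carries TLR3 and TLR9 to endosomes, had a ratio of -0.20 (-0.34 to -0.072), with 33.2 FPM in young and 28.8 FPM in aged HSCs. Lbp, which encodes lipopolysaccharide-binding protein, had 0.17 (0.043 to 0.29). Of 12 output cytokine genes, 10 were measured and 1 was higher. That was Il1b, with 76 and 73 fragments and a ratio of 0.35 (-0.14 to 0.83) whose interval included 0, followed by Ptgs2, the inducible cyclooxygenase, with 794 and 744 fragments and 0.31 (0.17 to 0.46). Of the 6 other receptors of the family, 3 were measured with 0 past the limit, among them Tlr12 with 0.13 (-0.077 to 0.33) and Cd180 with -0.10 (-0.30 to 0.095). Tlr7 and Tlr8, the endosomal receptors for single-stranded RNA, named after their values were seen, had 1.41 and 0.548 FPM in young and 1.53 and 0.382 FPM in aged HSCs, the latter gene close to the silent background. In the gene bodies of the 5 lists, 45 had 100 or more fragments. Of these, 1 (Il10) was higher and 0 were lower past the limit, against 8.32% and 2.58% of all bodies tested. The 1 higher and 1 lower promoter of the lists became 2 higher and 0 lower when the libraries were scaled to promoter fragments.

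**Figure D5:**
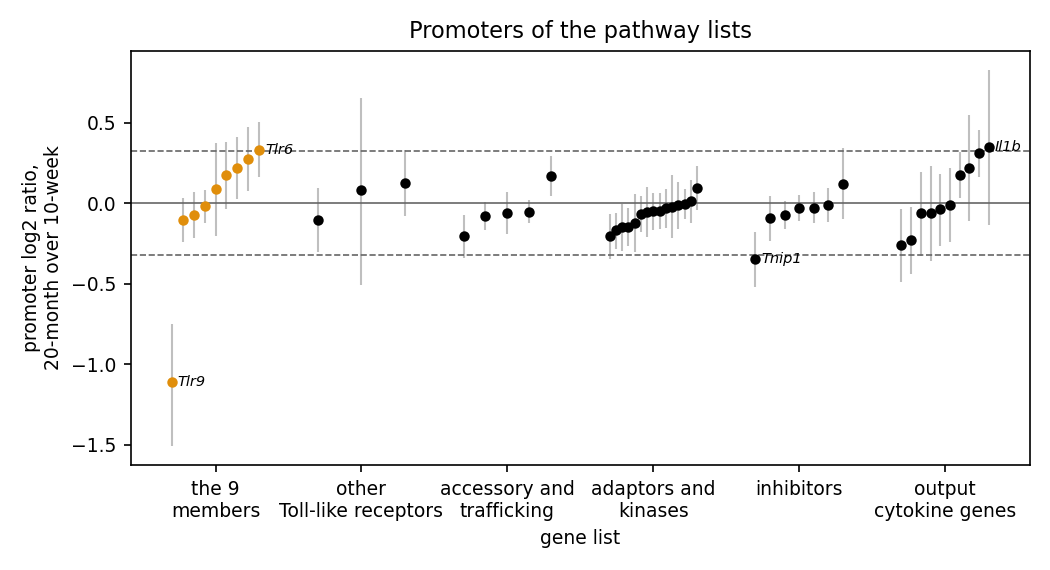
Promoter log2 ratios of the 9 members and of the pathway genes with 100 or more fragments, by list, with exact binomial 95% intervals as gray lines and broken lines at a log2 ratio of 0.32 in either direction. The 4 genes past the lines, Tlr9, Tlr6, Tnip1 and Il1b, are named, and the Tlr9 promoter at -1.11 lies apart from the 40 promoters of the lists.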

How the data were processed

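Single-cell ATAC-seq was measured in 1 library per age. Cell Ranger ATAC was run by the authors against mm10, which leaves deduplicated fragments with ends corrected for the transposase offset. They deposited, per barcode, these fragments and the counts of fragments in peaks, with the barcodes called as cells. The release is left out because the named one and the layout of the deposited tables differ.

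Called barcodes with 3000 to 20000 in-peak fragments in the deposited counts were kept, 4887 young and 3405 aged cells from 53786133 and 48333115 listed fragments. Cells were marked as doublets by an excess of loci where 3 or more of their fragments overlapped. The excess was taken over the library mean (Poisson, q-value under 0.01), and marked cells were kept. Fragments with an end inside a region were counted for it. Promoters were 1 kb on either side of the gene start in GENCODE vM21. Peaks were called anew in each library from cut sites (window 151 bp, Poisson with the genome mean or the mean of 10000 bp, whichever was larger, q-value 0.001) and merged to 166728. Promoters and bodies with 100 or more fragments, and bins and peaks with 40 or more, over both libraries were compared. Poisson and binomial intervals were exact at 95%. The log2 ratio and its interval were tested on simulated Poisson counts at promoters, without variation between libraries. Python 3.11.15, numpy 2.4.6, scipy 1.17.1, pandas 2.3.3, numba 0.67.0, pysam 0.24.0, samtools 1.23.1 and matplotlib 3.10.9 were used.

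No test was made. All members were named, with the 2 genes of largest ratio per pathway list, up to 3 bins or peaks per member with the largest ratio whose interval excluded 0, and the peak with the most fragments. Other peaks inside a promoter window or gene, marker genes and neighbors were chosen after their values were seen. A lower value of 1 B cell marker is not reported here. The members and lists were chosen with earlier results of these data known. Alternatives changed the scaling, cells, depth, fragments, window, filter and fold. Sequences were read from GRCm38.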

Additional observations from a re-analysis of the deposited data

How the results depend on the processing

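No paired analysis was possible because each age has 1 library, and for the same reason no library could be left out. The number of member promoters higher past a log2 ratio of 0.32, 1 as reported, was 0 when scaled to all unique fragments or by the trimmed mean of M values, 2 when scaled to promoter fragments or with cells thinned, and 4 with 500 bp on either side of the start; the number lower was 1 (Tlr9) in every alternative run. With short fragments alone the number higher was again 1, but the gene was Tlr3 (0.35) and Tlr6 was short of the limit at 0.2997. Without the promoter window the number of member bodies higher was 0, with Tlr6 at 0.29, and the 1 lower body was Tlr1 at -0.48 in place of Tlr9 at -0.29. Of 218 flank bins, 14 were higher and 20 lower. With 20 or more fragments these were 48 and 43 of 372 bins, and with 1 or more 391 and 332 of 1496. More bins were then higher than lower, the reverse of the main setting. Shares over all bins of the genome are not given for these filters. The pathway promoters, 1 higher and 1 lower, were 2 and 0 when scaled to promoter fragments, 0 and 0 at 1.5-fold, and 3 were lower with no filter on fragments. The shares of all promoters past that limit were 17.9% higher and 9.96% lower with 1 or more fragments, where low counts enter. No other cause was tested. No member's ratio that was past the limit changed sign in any alternative run. Counting error limits the low members most: 79 aged fragments at the Tlr9 promoter give an interval from -1.51 to -0.75.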
